A study of Mus musculus with 2 samples.

Results

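The mitochondrial genome of the mouse carries 37 genes, and all of them were quantified in nucleoplasmic RNA of macrophages. They were chosen by their symbol, which starts with mt- in the transcript names of the deposited tables, and they were matched by gene identifier to the gene tables. The 37 genes, among 55536 in all, comprise 13 mRNAs, 2 rRNAs and 22 tRNAs. The cells were macrophages derived from bone marrow of C57BL/6J mice, and both libraries received Lipid A, the membrane anchor of bacterial lipopolysaccharide, at 100 ng/ml for 20 min. RNA of the nucleoplasmic fraction, named nuclear fraction in another label, was depleted of ribosomal RNA and sequenced as total RNA. The labels give 1 group of 2 biological replicates, with no untreated control, no other time and no other fraction, and both replicates carry the same donor identifier. Age and sex were not collected. Replicate 1 started from 1 µg and replicate 2 from 500 ng of RNA, so replicate and input cannot be told apart. Every comparison below is therefore between libraries or between genes, without a p-value.

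Mitochondria keep a small circular genome that encodes core subunits of the respiratory chain together with the rRNAs and tRNAs needed to translate them. Both strands are transcribed as long precursors, which are cut largely at the tRNAs that lie between the other genes. Complex I oxidises NADH, complex III passes electrons from ubiquinol to cytochrome c, complex IV reduces oxygen and ATP synthase makes ATP; complex II has no mitochondrially encoded subunit. All other proteins of mitochondria, including those that transcribe, cut and translate these RNAs, are encoded in the nucleus.

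The gene totals of the first quantification, which gives expected counts, were 18194818 counts in replicate 1 and 18667509 in replicate 2. In the second quantification, which gives estimated counts per transcript, they were 25547670 and 29737809. All 10 macrophage markers reached 1 TPM, a level per length, in both libraries. Among 26 markers of 6 other cell types, 1 did so, the dendritic cell transcription factor Zbtb46 (1.19 and 1.36 TPM), and the 26 summed to 4.70 and 4.77 TPM.

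Mitochondrial RNA took 3.19% of counts in replicate 1 (exact Clopper-Pearson 95% interval 3.18 to 3.20) and 10.5% in replicate 2 (10.52 to 10.54), a mean of 6.86% ± 5.19 (SD, n = 2). The share in replicate 2 was thus more than 3 times that in replicate 1, and the intervals, which cover counting error alone, were far narrower than this gap. The second quantification placed 2.89% and 9.41% of its counts on the same genes. Counts placed on nuclear copies of the genes, described below, are left out of these shares. With them added, the mRNAs took 3.83% and 13.2% of counts in the first quantification. Without them, by RNA type, the mRNAs took 3.09% and 10.4%, and the rRNAs 0.101% and 0.170%. The mRNAs thus held 96.8% of mitochondrial counts in replicate 1 and 98.4% in replicate 2. In these libraries depleted of ribosomal RNA, mRNA counts exceeded rRNA counts 30.5-fold and 60.8-fold. The tRNAs had 0 counts in the first quantification, where their effective length is listed as 0, so that value is not a measurement of their absence. In a bulk sample, fewer mitochondria or cells and less RNA from each cannot be told apart.

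The members fill almost all of the mitochondrial genome. From the first to the last they span 15422 bases, of which 15365 lie inside a gene (mm10, GENCODE M21). The plus strand carries 28 members, and the minus strand carries 9, namely mt-Nd6 and 8 tRNAs. Along the plus strand follow mt-Nd1 (2751 to 3707), mt-Nd2 (3914 to 4951), mt-Co1 (5328 to 6872), mt-Co2 (7013 to 7696), mt-Atp8 (7766 to 7969), mt-Atp6 (7927 to 8607), mt-Co3 (8607 to 9390), mt-Nd3 (9459 to 9806), mt-Nd4l (9877 to 10173), mt-Nd4 (10167 to 11544), mt-Nd5 (11742 to 13565) and mt-Cytb (14145 to 15288). mt-Nd6 (13552 to 14070) lies opposite them and shares 14 bases with the end of mt-Nd5. Of the 13 mRNAs, 9 start with ATG, and mt-Nd1 (GTG), mt-Nd2 (ATA), mt-Nd3 (ATT) and mt-Nd5 (ATC) start with other codons. A complete stop codon ends 10 of them, while mt-Co3, mt-Nd4 and mt-Cytb end 1 base into it, with a T; in such mitochondrial mRNAs the stop codon is completed by the poly(A) tail. TGA, a stop codon in the nuclear code that is read as tryptophan in mitochondria, occurred 96 times inside the reading frames, in 12 of the 13 mRNAs; mt-Nd4l had none. Base composition set mt-Nd6 apart, with 28.1% G and 5.97% C in its RNA, whereas the 12 plus-strand mRNAs held 5.88% to 16.1% G and 22.1% to 29.97% C.

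Neighbouring reading frames overlap at 2 places on the plus strand by more than 1 base, and both pairs travel on a shared mRNA. The junctions are printed here because reads inside an overlap fit both genes, with the overlap in capitals (GENCODE M21 transcripts, mm10). The 43 bases shared by mt-Atp8 and mt-Atp6 make up a large piece of mt-Atp8, whose whole length is 204 bases, and the 7 bases shared by mt-Nd4l and mt-Nd4 are a small piece of either.
mt-Atp8 end and mt-Atp6 start (chrM:7897-7999, plus strand): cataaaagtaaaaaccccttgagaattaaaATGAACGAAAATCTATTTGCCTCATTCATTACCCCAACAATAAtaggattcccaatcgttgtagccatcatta
mt-Nd4l end and mt-Nd4 start (chrM:10137-10203, plus strand): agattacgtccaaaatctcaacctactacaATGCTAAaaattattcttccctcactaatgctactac

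Before levels are read, the nuclear copies of these genes have to be considered, since several members have a near-identical pseudogene in the nucleus. Each mitochondrial transcript was broken into words of 31 bases, and each word was looked up on both strands of all nuclear transcripts of GENCODE M21. Words of 23 nuclear genes matched. In 7 of these, all unprocessed pseudogenes, at least 50% of the words matched, and they lie together on the minus strand of chromosome 1 (chr1:24611535-24616197, 4663 bases). Their order, mt-Co1, mt-Co2, mt-Atp6, mt-Co3, mt-Nd3, mt-Nd4l and mt-Nd4, is that of the mitochondrial genome from position 6381 to 11042, a span of 4662 bases. As a result mt-Co2 shared 100% of its words with nuclear transcripts, mt-Co3 99.9%, mt-Atp6 99.5%, mt-Nd4l 98.9% and mt-Nd3 98.1%. mt-Co1 shared 63.9%, to which pseudogenes on chromosomes 1, 2 and 11 contribute, and mt-Nd4 shared 62.8%. The other 6 mRNAs shared less: mt-Nd5 16.8%, mt-Nd2 13.5%, mt-Atp8 7.47%, mt-Nd6 7.36%, mt-Cytb 6.55% and mt-Nd1 0%. Of the rRNAs, mt-Rnr1 shared 0% and mt-Rnr2 2.71%. Of the tRNAs, mt-Ty shared 10.8%, with a stretch of Cep295, and the other tRNAs shared none.

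Along their aligned lengths, 5 of the 7 copies had no difference from the mitochondrial gene: Gm28661 over 681 bases of mt-Co2, Gm10925 over 678 of mt-Atp6, Gm28437 over 783 of mt-Co3, Gm10222 over 294 of mt-Nd4l and Gm28439 over the first 876 of the 1378 bases of mt-Nd4. Gm28438 differed from mt-Nd3 at 1 of 345 bases, T3C, counted from the first base of the mitochondrial gene. Gm29216, a copy of the last 492 bases of mt-Co1, differed at 6 bases, T1056A, C1057T, A1059G, A1060G, C1062A and A1066T, all within its first 13 bases. The first 120 bases of mt-Atp6, equal in Gm10925 (chr1:24614532-24614651, minus strand), are printed to show what a read would have to be assigned on, and for mt-Nd3 and mt-Co1 the windows around the differences are printed with the differing bases in capitals (GENCODE M21, mm10).
mt-Atp6, and without a difference Gm10925 (chrM:7927-8046, plus strand): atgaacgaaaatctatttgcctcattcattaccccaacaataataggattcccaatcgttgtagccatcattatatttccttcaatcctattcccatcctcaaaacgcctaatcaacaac
mt-Nd3 (chrM:9459-9491, plus strand): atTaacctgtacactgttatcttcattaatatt
Gm28438 (chr1:24613087-24613119, minus strand): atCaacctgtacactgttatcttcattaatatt
mt-Co1 (chrM:6381-6413, plus strand): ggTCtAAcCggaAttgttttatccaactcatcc
Gm29216 (chr1:24616165-24616197, minus strand): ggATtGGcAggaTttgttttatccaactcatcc

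In the nuclear block, mt-Atp8 has no annotated copy. The annotated copies of mt-Co2 and mt-Atp6 are separated by 233 bases (chr1:24614652-24614884), where the mitochondrial genome has 230 bases between the same genes, holding mt-Tk and most of mt-Atp8; the copy of mt-Co2 ends at base 681 of 684. No transcript is annotated in that gap, and the genome sequence of the gap was not used here. The 13 of 174 words that mt-Atp8 shared lie in its overlap with mt-Atp6. Whether reads on mt-Atp8, mt-Tk and the other tRNAs inside the copied span also fit the nuclear block was not tested.

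The 2 quantifications divided the counts of such pairs differently. For mt-Co2 and its copy together, the first quantification held 51771 counts in replicate 1 and 148982 in replicate 2, of which 4.83% and 2.08% were placed on mt-Co2; the second held 56718 and 185386, of which 42.3% and 7.94% were placed there. Of the counts of mt-Atp6 and its copy (31280 and 178319), the first quantification placed 8.07% and 13.3% on mt-Atp6, and the second placed 99.5% and 100% of its own. The division for mt-Co3 was 32.2% and 8.78% in the first quantification, from 40019 and 103029 counts, against 98.1% and 64.3% in the second. mt-Nd3 received 58.5% and 15.6% of 4343 and 12576 counts in the first, and 100% and 92.8% in the second. mt-Nd4l received 36.8% and 19.7% of 9114 and 35874 counts, and 100% in both libraries in the second. The division was most alike for mt-Nd4 (68.0% and 70.5% of 65732 and 309478 counts, against 57.8% and 61.8%) and mt-Co1, which received 99.2% or more of its pair in both. The copies of these 2 genes cover only part of them, 876 of 1378 bases of mt-Nd4 and 492 of 1545 bases of mt-Co1. The other copies are nearly as long as their gene, such as 681 against 684 bases for mt-Co2.

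**Figure D1:**
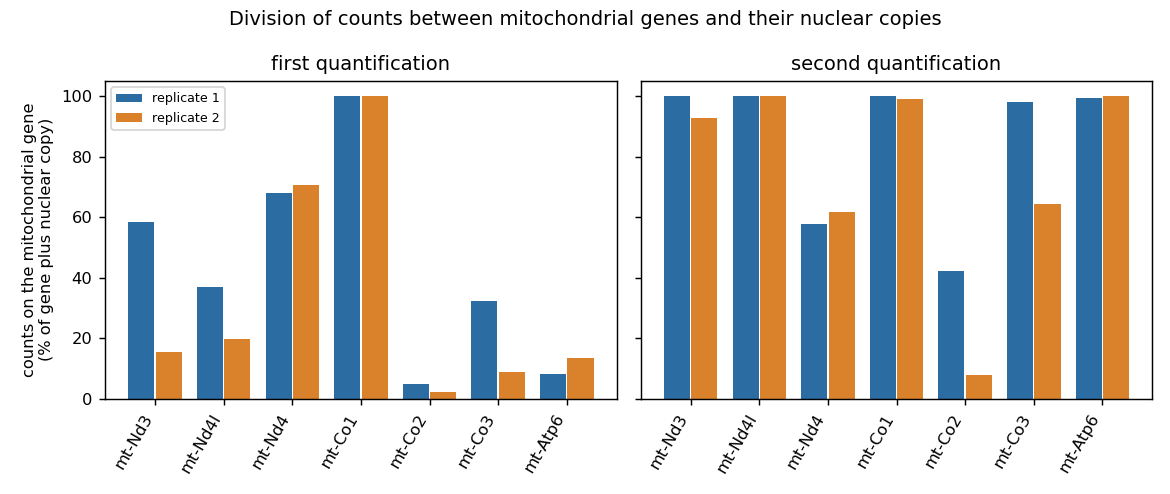
Share of counts placed on the mitochondrial gene, in percent of the gene plus its nuclear copy on chromosome 1, for the 7 genes with a copy (x axis), in replicate 1 (blue bars) and replicate 2 (orange bars), for the first quantification (left) and the second (right). For mt-Atp6 the share goes from 8.07% and 13.3% on the left to 99.5% and 100% on the right, while mt-Nd4 and mt-Co1 look alike in both.

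The sums were far steadier than their parts. Summed over gene and copy, the second quantification held 1.08 to 1.22 times the counts of the first in replicate 1 and 1.24 to 1.49 times in replicate 2. For the mitochondrial gene alone the same ratio was 9.60 and 4.74 for mt-Co2, 13.7 and 9.57 for mt-Atp6, and 3.30 and 9.14 for mt-Co3. Within the first quantification, the posterior mean TPM was 0.940 and 0.953 times the TPM for members such as mt-Nd1, but 2.41 and 4.25 times for mt-Co2 and 1.37 and 4.19 times for mt-Co3. Levels and ratios of mt-Co2, mt-Atp6, mt-Co3, mt-Nd3 and mt-Nd4l taken alone are therefore uncertain, and each is given below also with the counts of its copy added. The 7 copies took 0.735% and 2.81% of all counts in the first quantification and 0.254% and 1.26% in the second. Whether any of these reads came from the nuclear block was not tested.

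Complex I has 7 mitochondrially encoded subunits, all in its membrane arm. Their median level was 2010 TPM in replicate 1 and 7981 TPM in replicate 2 (mean 4995 ± 4222, SD, n = 2), and 2956 and 11066 TPM with copies added. mt-Nd6, the one mRNA on the minus strand, stood at 5848 and 12071 TPM. mt-Nd5 was at 3133 and 7989 TPM and mt-Nd1 at 2600 and 11066 TPM, with no word of mt-Nd1 shared with a nuclear transcript. mt-Nd2 had 1121 and 5412 TPM, the lowest level in replicate 1 once copies were added. mt-Nd4 had 2010 and 7981 TPM, and 2956 and 11316 TPM with its copy. The 2 short subunit mRNAs depended most on the copy: mt-Nd4l had 1832 and 2893 TPM alone and 4978 and 14709 TPM with it, and mt-Nd3 had 933 and 551 TPM alone and 1593 and 3540 TPM with it. With the copies added, all 7 were higher in replicate 2.

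Complex III has 1 such subunit, cytochrome b. Its mRNA mt-Cytb stood at 2371 and 9573 TPM (mean 5972 ± 5092, SD, n = 2), from 42196 and 209953 counts. With 6.55% of its words shared, it is among the mRNAs that depend little on how copies are treated.

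Complex IV has 3 such subunits, which form its catalytic core. mt-Co1, which holds the site of oxygen reduction, had by far the most counts of any mitochondrial gene, 263415 in replicate 1 and 730693 in replicate 2, and stood at 10366 and 23409 TPM. mt-Co2, which takes electrons from cytochrome c, had 276 and 275 TPM alone and 5716 and 13200 TPM with its copy. mt-Co3, the other core subunit, had 1176 and 665 TPM alone and 3653 and 7576 TPM with its copy. The median of the 3 genes was 921 ± 361 TPM (SD, n = 2) alone and 9458 ± 5292 TPM with copies added. In the first quantification the level of complex IV relative to the other complexes thus turned on the copies: its median was the lowest of the 4 in both libraries without them, and with them it was the highest in replicate 1 and below ATP synthase alone in replicate 2. Without copies in the second quantification, complex IV had the highest median in replicate 1 (1205 TPM, against 1161 for ATP synthase, 882 for complex I and 792 for complex III) and the lowest in replicate 2 (3070 TPM, against 14527, 5103 and 6067).

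ATP synthase has 2 such subunits, both part of its membrane sector. mt-Atp8 was at 5216 and 53443 TPM, from 2604 and 38833 counts. Its effective length was 26.3 bases in replicate 1 and 31.4 in replicate 2, because few fragments fit into 204 bases, so its TPM rests on a small divisor. mt-Atp6 had 281 and 2120 TPM alone and 3476 and 15897 TPM with its copy. Per length, mt-Atp8 exceeded mt-Atp6 with its copy 1.501-fold and 3.36-fold in the first quantification. In the second the same ratio was 0.938 and 1.86, so their order in replicate 1 depended on the quantification. For mt-Nd4l over mt-Nd4, the other pair with a shared mRNA, it was 1.68 and 1.30 in the first and 1.65 and 1.25 in the second.

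**Figure D2:**
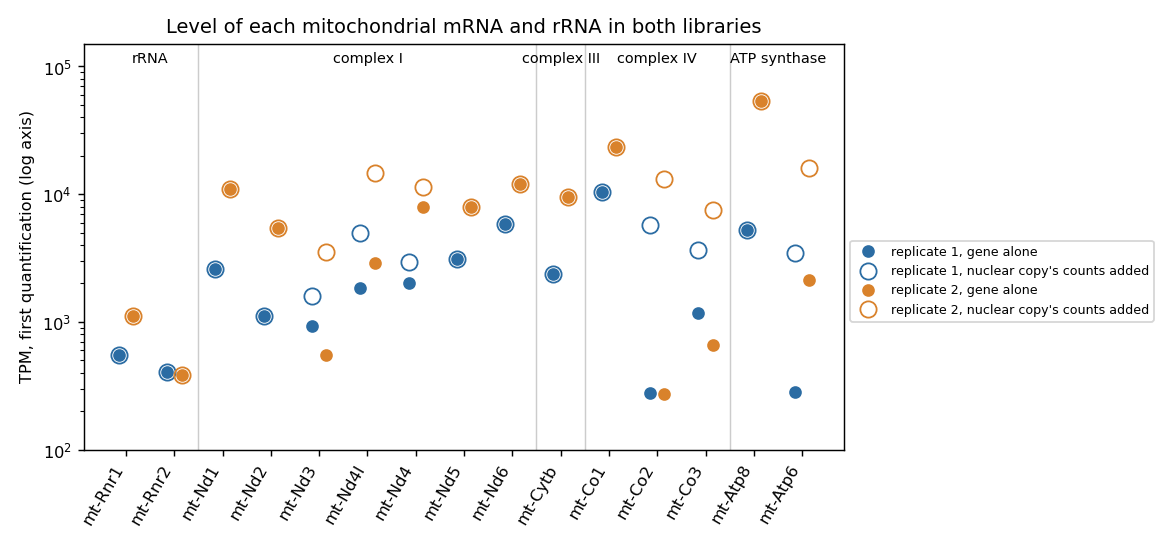
Level of the 13 mitochondrial mRNAs and 2 rRNAs in TPM of the first quantification (y axis, log scale), ordered by complex along the x axis, in replicate 1 (blue) and replicate 2 (orange). Filled points show the gene alone and open circles show it with the counts of its nuclear copy added; for mt-Co2 these are 276 and 5716 TPM in replicate 1.

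With copies added, the 13 mRNAs lay within a 9.25-fold range in replicate 1, from mt-Nd2 to mt-Co1, and within a 15.1-fold range in replicate 2, from mt-Nd3 to mt-Atp8; without mt-Atp8 the latter was 6.62-fold. Taken alone, the ranges were 37.5-fold and 195-fold. By mean level with copies added, the order was mt-Atp8, mt-Co1, mt-Nd4l, mt-Atp6, mt-Co2, mt-Nd6, mt-Nd4, mt-Nd1, mt-Cytb, mt-Co3, mt-Nd5, mt-Nd2 and mt-Nd3. Each step in this order was smaller than the larger of the SDs of its 2 neighbours (1377 TPM for mt-Nd3 to 34102 TPM for mt-Atp8, n = 2), but these SDs hold the difference between libraries that all 13 share. Within libraries, 5 of the 12 neighbouring pairs kept their order in both: mt-Co1 above mt-Nd4l, mt-Nd6 above mt-Nd4, mt-Nd4 above mt-Nd1, mt-Nd1 above mt-Cytb and mt-Nd5 above mt-Nd2. The other 7 pairs changed places between the libraries. Among all genes of the first quantification, mt-Co1 ranked 11th by TPM in replicate 1 and 7th in replicate 2, and mt-Atp8 31st and 2nd. Of the 13 mRNAs taken alone, 6 were among the 50 highest genes in replicate 1 and 10 in replicate 2.

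The share of each complex in the mRNA counts differed between the libraries. With copies added, complex IV held 51.0% of mitochondrial mRNA counts in replicate 1 and 40.0% in replicate 2, complex I held 38.04% and 42.7%, complex III 6.06% and 8.54%, and ATP synthase 4.87% and 8.83%. mt-Co1 alone held 37.8% and 29.7%. The composition, and not just the amount, of mitochondrial mRNA was thus unlike in the 2 libraries.

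The ratio between the libraries was taken as the log2 of replicate 2 over replicate 1 after scaling to TMM library sizes, a trimmed-mean scaling that sets the typical gene near 0 (median 0.004 over the 15557 genes that averaged at least 10 scaled counts). A gene was counted as higher or lower when it passed 2-fold and its exact 95% counting interval excluded 0. By this rule 4.36% of all genes were higher and 3.66% lower in the first quantification, and 7.58% and 4.27% in the second. Of the 37 members, 15 passed the minimum in the first quantification, and 11 of these were higher and 0 lower. The 11 were mt-Rnr1 and 10 mRNAs. In the second quantification 31 passed, of which 24 were higher and 1, mt-Ts1, was lower; 6 of the 24 are tRNAs with fewer than 10 counts in replicate 1, which passed the minimum through replicate 2 alone. With copies added, 13 of 13 mRNAs were higher in both quantifications, with a median log2 ratio of 2.04 (range 1.42 to 3.96) in the first and 2.00 (1.31 to 3.63) in the second. These ratios compare 2 libraries and not 2 conditions.

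The 3 mRNAs outside the count in the first quantification were all ones with a near-complete copy. mt-Co2 had 2502 and 3101 counts (log2 ratio 0.37), mt-Co3 had 12886 and 9049 (-0.45) and mt-Nd3 had 2543 and 1956 (-0.32). In the second quantification their ratios were -0.96, 0.70 and 1.32, so direction changed for each of the 3. With the copy added they were 1.58, 1.42 and 1.59 in the first quantification and 1.45, 1.31 and 1.43 in the second.

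The size of the difference was not the same for all mRNAs. With copies added, 6 mRNAs had log2 ratios of 1.42 to 1.70 in the first quantification, namely mt-Co1 (1.53), mt-Co2 (1.58), mt-Co3 (1.42), mt-Nd3 (1.59), mt-Nd5 (1.70) and mt-Nd6 (1.44). The other 7 had 2.04 or more: mt-Nd4l (2.04), mt-Nd4 (2.29), mt-Cytb (2.37), mt-Nd1 (2.45), mt-Atp6 (2.57), mt-Nd2 (2.63) and mt-Atp8 (3.96). In the second quantification the same 6 ran from 1.31 to 1.56 and the same 7 from 2.00 to 3.63. All 3 complex IV mRNAs were in the lower set, and cytochrome b and both ATP synthase mRNAs were in the higher one, while complex I had members in both. The boundary between the sets was chosen after seeing the values. The 95% counting interval was 3.90 to 4.02 for mt-Atp8 and 1.53 to 1.54 for mt-Co1, and such intervals cover counting error alone. For the 6 mRNAs that share under 20% of their words, the median without any copy was 2.41.

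**Figure D3:**
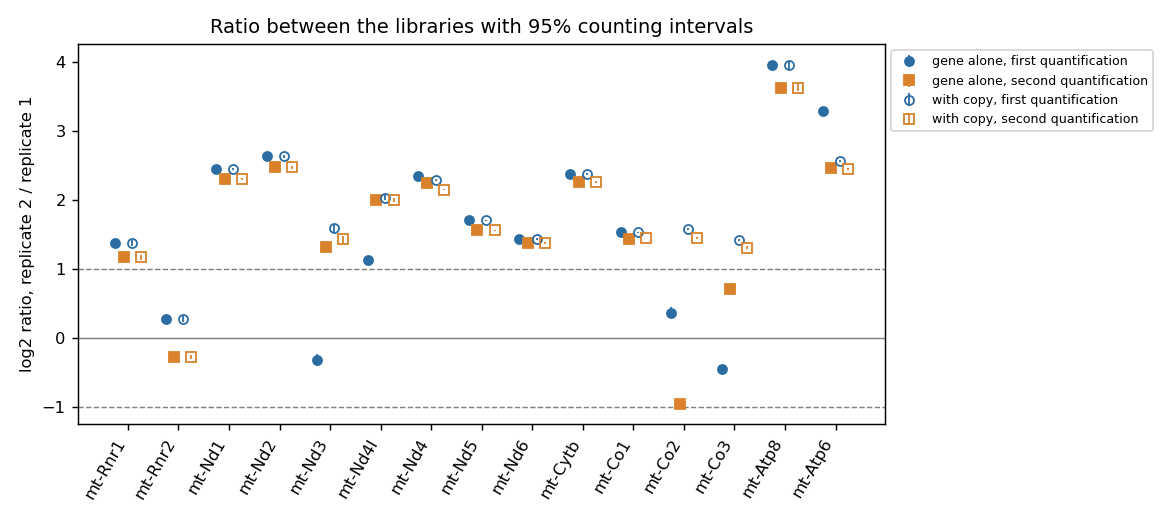
Log2 ratio of replicate 2 over replicate 1 (y axis) for the 2 rRNAs and 13 mRNAs (x axis) in the first (circles) and second (squares) quantification, for the gene alone (filled) and with its nuclear copy's counts added (open). Bars are exact 95% counting intervals, mostly narrower than the symbols, and dashed lines mark 2-fold; with copies added, the 13 mRNAs lie between 1.31 and 3.96.

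Other RNAs differed between the libraries in either direction. The signal recognition particle RNA genes Rn7s1 and Rn7s2, whose RNA acts in the cytoplasm, were given equal counts, and each had 99625 counts in replicate 1 and 49616 in replicate 2 (log2 ratio -0.95, short of 2-fold). Rn7s6 of the same list went the other way, at 1.16 (interval 0.06 to 2.44) from 10.1 and 22.1 counts, and was the one gene of that list counted as higher; none was counted as lower. Loci that collect ribosomal RNA reads had a median log2 ratio of -1.82 over 5 loci, with 3 of them lower (Gm26917, Gm42418 and CT010467.1), and took 1.88% and 0.254% of counts. The phiX174 sequencing control took 0.823% and 0.206%. The nuclear RNAs Rn7sk (0.88) and Rpph1 (0.99) were higher in replicate 2 without passing 2-fold, and Malat1, retained in the nucleus, was at 0.16. With the loci that collect ribosomal RNA reads left out of the total, the mitochondrial share was 6.91% ± 5.17 (SD, n = 2), against 6.86% ± 5.19 with them. The phiX174 entry stayed out of the gene totals. The part of the other RNAs named here, and of the RNA input, in the mitochondrial difference was not tested.

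The 2 rRNAs behaved unlike each other. mt-Rnr1, the rRNA of the small mitochondrial ribosomal subunit (positions 70 to 1024), had 7791 and 19440 counts, or 549 and 1107 TPM (log2 ratio 1.38, and 1.17 in the second quantification). mt-Rnr2, that of the large subunit (1094 to 2675), had 10647 and 12358 counts, or 408 and 385 TPM (log2 ratio 0.27), and -0.28 in the second quantification. mt-Rnr2 was thus nearly level between the libraries, with a direction that depended on the quantification. Per length, mt-Rnr1 exceeded mt-Rnr2 1.35-fold and 2.87-fold in the first quantification, against 0.778 and 2.08 in the second. Both were below every mRNA with copies added. The libraries were depleted of ribosomal RNA, and how far the depletion acted on these 2 RNAs was not tested.

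The tRNAs could be read in the second quantification alone. All 22 had at least 1 estimated count in both libraries, and 18 had 3 or more in both; they summed to 1090 counts in replicate 1 and 2237 in replicate 2. Their lengths of 59 to 75 bases lie below the labelled size range of 250 to 400, and their effective lengths of 16.5 to 19.6 bases make TPM unstable, so counts are given. Reads from cut tRNAs and reads from uncut precursors cannot be told apart here.

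Most tRNA counts lay on the minus strand. Its 8 tRNAs held 994 of the counts in replicate 1 (91.2%) and 1809 in replicate 2 (80.9%), whereas the 14 of the plus strand held 96 and 428. mt-Ts1, a serine tRNA, had 522 and 210 counts, mt-Tp had 153 and 491, and mt-Tc had 129 and 390. mt-Te had 95 and 203, mt-Ty 43 and 152, and mt-Tn 34 and 306. The lowest minus-strand tRNAs, mt-Tq (10 and 15) and mt-Ta (8 and 42), lay inside the range of the plus strand, which ran from 1 to 24 counts in replicate 1 and from 1 to 94 in replicate 2. mt-Th had the most counts of the plus strand, 24 and 94. The median of 69.0 and 207 counts on the minus strand compared with 5.50 and 25.0 on the plus strand. The strand setting of neither quantification is given in the sources used here, so reads of minus-strand tRNAs and reads antisense to them, from the plus-strand precursor, cannot be told apart; the same holds for mt-Nd6.

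The sequences of these 8 tRNAs and of mt-Th are printed since the tRNA counts rest mainly on them, with the anticodon in capitals as the genome's letters give it (GENCODE M21 transcripts, mm10).
mt-Ts1 for serine (chrM:6870-6938, minus strand): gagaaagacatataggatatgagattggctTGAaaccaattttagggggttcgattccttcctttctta
mt-Tp for proline (chrM:15356-15422, minus strand): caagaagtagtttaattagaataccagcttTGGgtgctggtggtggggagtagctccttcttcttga
mt-Tc for cysteine (chrM:5192-5257, minus strand): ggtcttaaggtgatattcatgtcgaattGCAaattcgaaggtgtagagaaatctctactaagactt
mt-Te for glutamate (chrM:14071-14139, minus strand): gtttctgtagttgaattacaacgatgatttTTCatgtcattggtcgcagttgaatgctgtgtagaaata
mt-Ty for tyrosine (chrM:5260-5326, minus strand): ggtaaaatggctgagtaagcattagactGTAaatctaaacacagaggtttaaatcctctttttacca
mt-Tn for asparagine (chrM:5089-5159, minus strand): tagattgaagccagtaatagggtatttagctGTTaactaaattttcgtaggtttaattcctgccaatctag
mt-Tq for glutamine (chrM:3772-3842, minus strand): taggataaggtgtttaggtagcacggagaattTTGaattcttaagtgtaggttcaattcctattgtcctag
mt-Ta for alanine (chrM:5018-5086, minus strand): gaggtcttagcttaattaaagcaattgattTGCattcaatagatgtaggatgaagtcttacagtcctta
mt-Th for histidine (chrM:11546-11612, plus strand): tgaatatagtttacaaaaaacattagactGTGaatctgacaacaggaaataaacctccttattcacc

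Of the 8, mt-Ta, mt-Tn, mt-Tc and mt-Ty, lie side by side between positions 5018 and 5326, just before mt-Co1. mt-Ts1 lies at the other end of mt-Co1 (6870 to 6938) and shares 3 bases with it on the opposite strand. mt-Te lies between mt-Nd6 and mt-Cytb, and mt-Tp is the last member at 15356 to 15422.

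**Figure D4:**
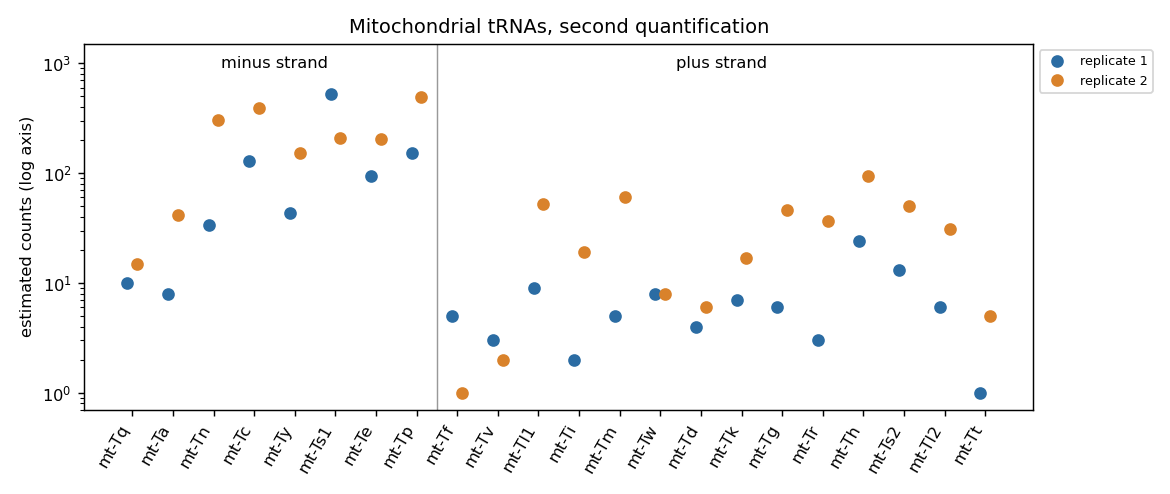
Estimated counts of the 22 mitochondrial tRNAs in the second quantification (y axis, log scale), with the 8 minus-strand tRNAs left of the line and the 14 plus-strand tRNAs right of it, in replicate 1 (blue) and replicate 2 (orange). The highest points are mt-Ts1 in replicate 1 (522) and mt-Tp in replicate 2 (491), and mt-Ts1 is far lower in replicate 2 (210).

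Of the 22 tRNAs, 16 passed the minimum count, and 12 of these were higher in replicate 2 and 1 lower. Of the 12, 6 (mt-Tm, mt-Tr, mt-Tg, mt-Tl2, mt-Ta and mt-Tl1) had fewer than 10 counts in replicate 1 and passed through replicate 2 alone. mt-Tk (7 and 17 counts) passed in the same way and did not reach 2-fold. The minimum thus favours tRNAs that are high in replicate 2, and the count of 12 supports nothing. Of the 9 tRNAs with 10 counts or more in both libraries, 6 were higher (mt-Tn, mt-Th, mt-Ts2, mt-Ty, mt-Tp and mt-Tc) and mt-Ts1 was lower. Over all genes that averaged at least 10 scaled counts in this quantification, 7.58% were higher and 4.27% lower. No such share was computed for genes with 10 counts or more in both libraries, so the 6 of 9 is not read further. mt-Ts1 was the lower one, with a log2 ratio of -1.57 (95% counting interval -1.81 to -1.34). Without it, the minus-strand tRNAs had 472 and 1599 counts. The highest ratios among those that passed were mt-Tm at 3.20 (5 and 60 counts), mt-Tr at 3.16 (3 and 37) and mt-Tn at 2.89, and the first 2 have wide intervals (2.03 to 5.002 and 1.71 to 5.71). mt-Tc (1.34), mt-Tp (1.42) and mt-Ty (1.55) were close to the lower set of mRNAs. mt-Te (0.83), mt-Tq (0.30) and mt-Tk (0.97) passed the minimum without reaching 2-fold. The remaining plus-strand tRNAs that were higher were mt-Tl1 (9 and 52 counts), mt-Tg (6 and 46), mt-Ts2 (13 and 50), mt-Tl2 (6 and 31) and mt-Th, and mt-Ta was the other minus-strand one. Below the minimum were mt-Ti (2 and 19 counts), mt-Tw (8 and 8), mt-Td (4 and 6), mt-Tf (5 and 1), mt-Tt (1 and 5) and mt-Tv (3 and 2). mt-Tf and mt-Tv flank mt-Rnr1, and along with mt-Td and mt-Tt they are too few in counts to order.

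Nuclear genes that serve the mitochondrial genome or its complexes lay around a log2 ratio of 0. Across 9 lists (transcription and replication, RNA processing, aminoacyl-tRNA synthetases, ribosomal proteins, and the nuclear subunits of complexes I to IV and ATP synthase, the last with its inhibitor Atpif1), 215 genes passed the minimum, and 8 were higher and 3 lower in replicate 2. These are 3.72% and 1.40%, beside 4.36% and 3.66% of all genes. Of 216 genes in the second quantification, 3 were higher (Mterf2, Ndufb4 and Uqcrb) and 5 lower (Lars2, Mrpl52, Mrpl53, Ndufb6 and Uqcr10). Over all genes of that quantification, 7.58% were higher and 4.27% lower. With so few genes counted, no balance of directions is read from either quantification. The nuclear subunits of the respiratory chain had 3 higher (Ndufa3, Ndufb4 and Uqcrb) and 1 lower (Uqcr10) of 74 in the first quantification and 2 and 2 of 75 in the second, where Ndufa3 was at 0.77, with first-quantification median log2 ratios of 0.16 for complex I (35 genes), -0.10 for complex III (9), -0.10 for complex IV (11), 0.08 for ATP synthase (15) and -0.03 for complex II (4). Of all 291 nuclear genes in these lists and among cytosolic ribosomal proteins, 1, Uqcrb of complex III, exceeded the lowest ratio of the 13 mRNAs with copies added (1.74, with 45 and 145 counts, against 1.42 for mt-Co3).

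By function, none of 16 transcription and replication genes was counted as higher or lower in the first quantification (median 0.09, and -0.05 in the second). Among them the terminator factor family member Mterf3 was at 25.9 and 23.7 TPM, the DNA polymerase Polg at 28.1 and 19.2, and the single-stranded DNA binding protein Ssbp1 at 21.1 and 19.9, with Mterf2 lowest at 0.30 and 0.63, whose log2 ratio of 1.02 had an interval that included 0 (-0.25 to 2.49); in the second quantification it was counted as higher, at 1.40 from 13 and 42 counts. Of 28 RNA processing genes, 2 were higher, Trmt10c, a subunit of mitochondrial RNase P (1.24 and 2.03 TPM, log2 ratio 1.05), and Fastkd5 (2.47 and 4.25 TPM, 1.06), and neither passed 2-fold in the second quantification (0.86 and 0.61). The highest of that list were Fastk (29.9 and 17.6 TPM), the poly(A) polymerase Mtpap (14.2 in both) and the CCA-adding enzyme Trnt1 (14.7 and 12.2), and the lowest was Mrm3 (0.93 and 1.09). The synthetases had a median of -0.23 over 19 genes with none past 2-fold in the first quantification, led by Fars2 (28.5 and 25.3 TPM), Cars2 (27.3 and 13.3) and Hars2 (24.3 and 9.71), with Mars2 lowest (1.07 and 0.90). The synthetase gene Lars2 was lower in the second quantification, at -1.11 against -0.50 in the first. Of 78 mitochondrial ribosomal protein genes, 3 were higher (Mrpl32, Mrpl41 and Mrpl57) and 2 lower (Mrpl52 and Mrpl53; median 0.09), with Mrpl24 (65.8 and 61.8 TPM), Mrps9 (25.6 and 16.0) and Mrpl37 (16.4 and 14.5) at the top and Mrps16 (0.99 and 0.52) at the bottom. None of the 3 passed 2-fold in the second quantification (0.66, 0.92 and 0.66), where Mrpl52 and Mrpl53 were again lower. The cytosolic ribosomal protein genes, with 0 higher and 3 lower of 76 (Rpl36, Rpl37 and Rps21; median -0.09), were led by Rpl10 (169 and 108 TPM), Rpl10a (103 and 69.5) and Rpl41 (91.3 and 74.0), and Rpl10l was listed at 0.

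**Figure D5:**
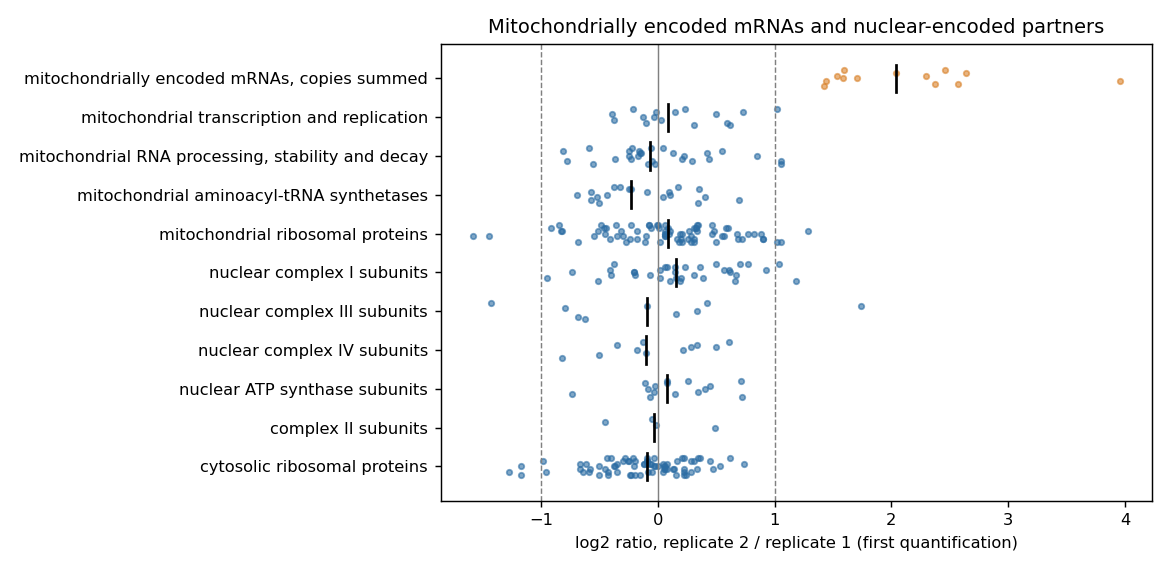
Log2 ratio of replicate 2 over replicate 1 (x axis, first quantification) of the 13 mitochondrial mRNAs with copies added (orange points) and of genes in 10 nuclear lists (blue points), one row per list, with the median as a black bar and 2-fold as dashed lines. The mRNAs lie between 1.42 and 3.96, and 1 nuclear gene, Uqcrb at 1.74, lies inside that range.

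Levels of the 2 sets of subunits were orders of magnitude apart in this RNA. For complex I, the median of the 7 mitochondrial mRNAs with copies added was 406 times that of 36 nuclear subunit genes in replicate 1 (7.28 TPM) and 1940 times in replicate 2 (5.71 TPM). For complex IV the ratio was 375 and 1237 (11 nuclear genes at medians of 15.3 and 10.7 TPM), for ATP synthase 295 and 2830 (15 genes, 14.7 and 12.3 TPM), and for complex III, from mt-Cytb alone, 310 and 1480 (9 genes, 7.64 and 6.47 TPM). Without copies, the ratio for complex IV was 77.1 and 62.4, so its size and direction between libraries depended on the copies. It was then 276 and 1399 for complex I and 187 and 2268 for ATP synthase. Among the highest nuclear subunits were Ndufs1 (25.96 and 20.6 TPM) and Ndufa3 (13.5 and 17.9) of complex I, Uqcrh (20.0 and 13.8), Uqcrc1 (16.0 and 15.6) and Uqcrb (7.16 and 18.5) of complex III, Cox4i1 (50.4 and 25.8), Cox7c (33.7 and 38.5) and Cox6c (22.5 and 21.9) of complex IV, and Atp5b (65.7 and 45.9) and Atp5a1 (27.9 and 23.4) of ATP synthase. Atpif1 (27.3 and 41.1), an inhibitor of ATP synthase and not a subunit, is counted among its 15 genes here and above. The lowest genes of these lists were Ndufb6, Uqcrfs1, Cox7b and Atp5g1, at 0.50 to 5.42 TPM. Complex II, encoded in the nucleus alone, had Sdha at 48.9 and 39.5 TPM, Sdhb at 19.7 and 11.4, Sdhd at 7.97 and 6.01, and Sdhc at 5.91 and 7.17. The lowest mitochondrial mRNA with copies added, mt-Nd2 at 1121 TPM in replicate 1, was above every one of these.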

How the data were processed

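The 2 libraries of 1 group were analysed as deposited by the authors, quantified against mm10 and GENCODE M21, per the accompanying notes. The authors' gene tables hold expected counts, TPM and FPKM, with column names that RSEM writes, per the file headers ("first quantification"). The deposited transcript tables of the second quantification hold estimated counts and TPM, with column names that kallisto writes. For program versions, filters and strand, the setting was not found in the labels or headers.

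Counts of the second quantification were summed per gene. Spike-in entries, numbered entries and a phiX174 entry (0.823% and 0.206% of the table's counts) stayed out of library sizes. Expected and estimated counts were rounded to whole numbers, scaled with TMM (edgeR 4.0.16, R 4.3.3) and compared as log2 ratios with a prior count of 0.5 and exact binomial 95% counting intervals, for genes averaging at least 10 scaled counts. The labels name no molecular identifiers, so these intervals, and the limit of 3 counts that a count of 0 allows (0.165 and 0.161 CPM), reflect counting error and no other source. The ratio step was tested on counts simulated with counting error alone. That test cannot judge differences between libraries from other sources. Nuclear copies were genes with 50% or more of their 31-base words in a mitochondrial transcript. A level with the copy added is the gene's TPM times the summed counts over its own counts. With 1 group no test between conditions exists.

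All 37 members are accounted for. The 13 mRNAs and 2 rRNAs are named, tRNAs with a count in either quantification, copies with 1000 counts or more in either library, and of each nuclear list the 3 highest genes and the lowest by mean TPM. Genes named outside this rule (list members past 2-fold, CT010467.1, Gm42418, Cep295) were chosen after their values were seen. Members and lists were chosen with earlier results of these data known. Alternatives covered scaling (DESeq2 1.42.0 size factors included), filters, prior count, unit, quantification, copies and leaving out each library. Prorp, Atp5o and Rmrp were not analysed here. Of the genes the rule names, 1 is not reported here.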

Additional observations from a re-analysis of the deposited data

Results flagged for a closer look

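Counts were present in entries outside the gene comparisons. The phiX174 entry, a control added in sequencing, held 150987 counts in replicate 1 and 38616 in replicate 2, so the library with the smaller mitochondrial share held more of it. The numbered entries of the gene tables, 26248 in all with effective lengths up to 72.0 bases, summed to 30 and 94 counts. The limit of 3 that a count of 0 allows holds for a single entry, so this sum cannot be set against it. The labels and headers do not say what the numbered entries stand for.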

How the results depend on the processing

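The mitochondrial share of counts (6.86%) was 6.15% to 8.64% under the 5 other choices of count table, denominator, copies or posterior counts. The highest of these was with copies summed. With 1 library left out it was 3.19% to 10.5%. All lie within 1 SD (5.19), but that SD reflects the gap between the 2 libraries and is too wide to judge these choices. The median log2 ratio of the mRNAs (1.70) was 1.67 with DESeq2 size factors, 1.61 with library totals, 1.35 from TPM, 2.00 in the second quantification and 2.04 with copies summed; filters, prior count and TMM without mitochondrial genes left it at 1.70 or 1.71. Alternatives added after seeing the data gave 2.00 (second quantification with copies summed) and 2.41 (the 6 mRNAs under 20% shared words). The number of members over 2-fold higher (11) was 10 to 14 under the other settings and 24 in the second quantification, where tRNAs pass the minimum. The median level of complex IV (921 TPM) was 2137 in the second quantification, 2203 from posterior means and 9458 with copies summed, an alternative added after seeing the data. Rescaled over the 13 mRNAs, the medians were 56071 TPM for complex I, 66728 for complex III, 18246 for complex IV and 138036 for ATP synthase, by construction of a smaller total. With 1 library left out they ranged from 2010 to 7981 (complex I), 2371 to 9573 (complex III), 665 to 1176 (complex IV) and 2748 to 27782 TPM (ATP synthase). tRNAs with a count in both libraries numbered 0 in the first quantification, 22 in the second and 18 there with 3 counts or more (added after seeing the data). Of 190 further settings for single members and lists, 75 moved a value and 0 turned the direction of a member past 2-fold. mt-Co2, mt-Co3, mt-Nd3 and mt-Rnr2, which did not pass it, changed direction with the quantification, and mt-Co2 (-0.01) and mt-Rnr2 (-0.08) also with TPM ratios. List medians near 0 changed sign with library totals. They were -0.005 for mitochondrial ribosomal proteins (from 0.09), -0.02 for the nuclear ATP synthase list (from 0.08) and -0.01 for transcription and replication (from 0.09). In the second quantification the complex medians were 2992 TPM (complex I, from 4995), 3430 (complex III, from 5972) and 7844 (ATP synthase, from 15265). No paired analysis was possible because there is 1 group. Depth did not limit the mRNAs, but the tRNAs of 1 to 13 counts are imprecise.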
